A study of Mus musculus with 204 samples.

Results

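Glutamate synthesis, uptake and vesicular loading were followed through 8 genes, which are 8 of the 49492 gene rows of the series table and were chosen by name. They are Slc17a6, Gls2, Glul, Slc38a1, Slc38a2, Slc1a1, Slc1a2 and Slc1a3. Each was read in all cells of the series, in cells with a neuronal profile against the others, by detection of Chat and Nos1, and by plate. Chat encodes the enzyme that makes acetylcholine and Nos1 the neuronal nitric oxide synthase, the classical markers of excitatory and inhibitory enteric motor neurons.

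Neurons make most of their transmitter glutamate from glutamine. Glutamine enters through sodium-coupled transporters of the SLC38 family, a glutaminase in the mitochondria turns it into glutamate, and a vesicular glutamate transporter loads the product into synaptic vesicles, driven by the proton pump of the vesicle. In the brain, released glutamate is cleared by excitatory amino acid transporters, chiefly on astrocytes, and astrocytes convert it back to glutamine with glutamine synthetase. In the gut, enteric glia surround the myenteric neurons, and most excitatory transmission there is cholinergic.

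The mice were VGLUT2-tdTomato, in which a red fluorescent protein reports Slc17a6, and the tissue was distal colon. Its muscle and myenteric nerve network were taken apart enzymatically and kept in culture overnight, and red cells were picked by hand, 1 per library, from animals the labels do not name. Whether the reporter follows present or past Slc17a6 expression is not given in the sources used here. No treatment or second genotype is named, so every group below shares the reporter, the culture and the picking.

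Plates 1, 2 and 3 held 66, 66 and 72 cells. Plates are those of the sample titles. The column names of the table set plate 1 apart but give plates 2 and 3 the same plate code. The sample descriptions name plates 2 and 3 as separate libraries, with index numbers that run on from plate 2 to plate 3. Whether plates 2 and 3 were prepared or run together is not stated. The depth per cell lay between 453052 and 14310732 gene reads. Levels are given as CPM, reads per 1000000 reads of the cell, and a transcript counted as detected at 10 CPM. A cell was called neuronal where it had at least 7 of 13 pan-neuronal transcripts, among them Elavl4, Uchl1, Snap25 and Tubb3. By that measure 151 cells were neuronal (53, 44 and 54 by plate) and 53 were not (13, 22 and 18 by plate), although the labels call every cell a neuron. The other 53 cells all carried marker lists of other cell types, as did 55 of the 151 neuronal cells. The smooth muscle list was found in 39 neuronal and 36 other cells, and the list of enteric glia in 10 neuronal and 12 other cells. Median depth was 4204531 reads in neuronal and 3971704 reads in other cells, but 5620219 against 2022651 reads on plate 3.

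Since no animal or culture is named, each plate is 1 sample, cells are not replicates, and no test or p-value is given. Shares carry exact Clopper-Pearson 95% intervals, which take the cells of a group as independent draws. They leave out differences between animals, cultures and plates. The reads have no molecular identifiers. Between classes of cells, mean CPM was set against mean CPM as a log2 ratio, 1 CPM being added to both, wherever a plate held 5 or more cells of each class. A difference was called where the ratio was at least 1 in size with the same sign on every plate compared. All 8 genes passed a minimum mean of 1 CPM, as did 18816 genes of the table.

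Slc17a6 encodes VGLUT2, which carries glutamate into synaptic vesicles, and lies on the forward strand of chr7:51622006-51671119 (mm10). Glul encodes glutamine synthetase and lies on the forward strand of chr1:153899944-153909723. Slc38a2 encodes SNAT2, a glutamine and alanine carrier, on the reverse strand of chr15:96687392-96699730. The promoters of these 3 are printed because Slc17a6 was read almost exclusively in neuronal cells, Glul in most cells of both kinds, and Slc38a2 at a lower mean in neuronal cells. The RefSeq promoter table (GRCm38.p6) held 6 of the 8 genes, and Gls2 and Slc38a1 were not among them. The table gives a second start for Slc17a6, at chr7:51624387-51624686, and the sequence printed is that of the first. Each sequence runs from 250 bases before to 50 after the RefSeq start, 5′ to 3′ on the strand of the gene. Capitals mark GGGCGG, the GC box, or its reverse complement.
Slc17a6 (chr7:51621580-51621879, forward strand): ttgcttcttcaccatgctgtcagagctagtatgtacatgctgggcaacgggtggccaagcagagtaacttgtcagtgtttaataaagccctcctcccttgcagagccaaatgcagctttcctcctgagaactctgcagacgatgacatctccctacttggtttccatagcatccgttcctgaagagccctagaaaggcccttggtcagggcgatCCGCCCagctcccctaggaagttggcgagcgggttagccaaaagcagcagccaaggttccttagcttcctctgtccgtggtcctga
Glul (chr1:153899679-153899978, forward strand): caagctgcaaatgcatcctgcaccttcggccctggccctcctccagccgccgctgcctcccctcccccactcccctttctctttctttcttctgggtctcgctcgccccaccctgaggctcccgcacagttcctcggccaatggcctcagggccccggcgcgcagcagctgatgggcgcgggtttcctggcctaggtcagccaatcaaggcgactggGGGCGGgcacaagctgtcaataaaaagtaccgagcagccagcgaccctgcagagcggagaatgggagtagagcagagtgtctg
Slc38a2 (chr15:96699679-96699978, reverse strand): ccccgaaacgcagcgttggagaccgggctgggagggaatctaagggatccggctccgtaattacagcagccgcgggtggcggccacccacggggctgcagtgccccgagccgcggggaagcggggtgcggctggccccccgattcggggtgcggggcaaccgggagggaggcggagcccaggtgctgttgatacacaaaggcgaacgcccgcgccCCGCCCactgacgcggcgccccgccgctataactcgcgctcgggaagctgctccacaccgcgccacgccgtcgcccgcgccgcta
The 3 printed sequences each held 1 GC box on one strand or the other, starting 36 bases before the first start of Slc17a6, 33 before that of Glul and 35 before that of Slc38a2. A GC box was found in 35.7% of 32851 mouse promoters of this length. The first promoter of Slc17a6 was 53.7% G and C with 8 CpG dinucleotides, near the median promoter of 52.7% and 7. Its second promoter had 43.0% and 3 CpG and no GC box. Glul had 64.3% and 17 CpG, and Slc38a2 had 41 CpG, richer in G and C than 94.3% of promoters. TATAAA, TGACGTCA and TGATGNAA, searched on both strands, were in none of the 3 windows. They were found in 13.6%, 1.79% and 3.97% of all promoters.

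Per length of transcript, which allows genes to be set against each other, the carriers of glutamine and glutamine synthetase stood highest in neuronal cells. On the RPKM scale, reads per kilobase and 1000000 reads, Slc38a2 averaged 21.1 ± 17.1, Glul 18.8 ± 24.4, Slc38a1 18.8 ± 12.9 and Slc17a6 12.9 ± 19.6 (SD over 151 cells). Gls2, the liver-type glutaminase, averaged 4.99 ± 8.66 RPKM, and the 3 transporters for uptake of glutamate each averaged under 1 RPKM. These spreads overlap between neighbours in the order. Slc38a2 exceeded Glul in 91 of 149 cells with reads of either, and Slc38a1 exceeded Slc17a6 in 69.6% of cells with reads of that pair. Slc38a1 also exceeded Glul in most cells, with Glul the higher in 54 of 149, although their means were alike. Gls2 exceeded Slc1a2, the next below it, in 88 of 100 cells.

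**Figure D1:**
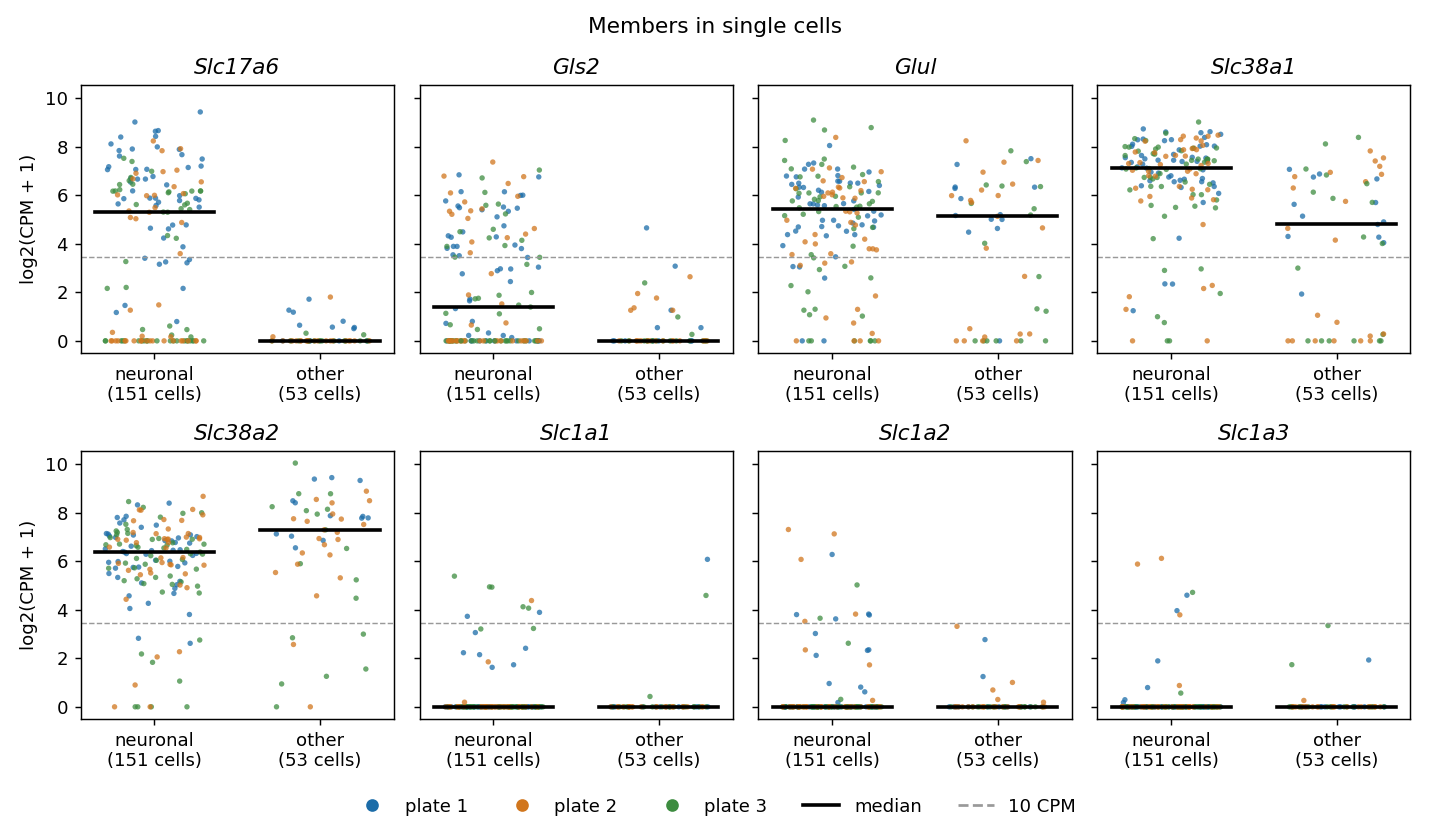
Level of each gene in every cell, as log2(CPM + 1), with neuronal cells on the left and other cells on the right of each pair; points are cells coloured by plate, black lines are medians and the dashed line is the detection threshold of 10 CPM. Slc17a6 was detected in 89 of 151 neuronal cells and 0 of 53 other cells, while the points of Glul overlap over most of their range.

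Slc17a6 was detected in 89 of 151 neuronal cells (58.9%, 95% interval 50.7 to 66.9%) and in 0 of 53 other cells. By the limit of 3 cells, this count of 0 allows a share of up to 5.66%, and the exact upper bound is 6.72%. Its level in neuronal cells ran from 0 through a median of 38.5 to 692.7 CPM, and in other cells from 0 through a median of 0 to 2.50 CPM. The highest other cell thus stood below the median of neuronal cells, but neuronal cells also reached down to 0. The plates differed: on plate 1 Slc17a6 was in 44 of 53 neuronal cells (83.02%), while plate 2 had 20 of 44 (45.5%) and plate 3 had 25 of 54 (46.3%). The plate medians were 71.7, 0.839 and 3.54 CPM. Plates 2 and 3 were alike and plate 1 stood above both. Among neuronal cells with the transcript the median was 71.5 CPM. The plate means were 128.04, 43.4 and 34.2 CPM in neuronal cells, against 0.588, 0.119 and 0.0241 CPM in other cells. The log2 ratios were 6.34, 5.31 and 5.10. Since the means of other cells lay below the added 1 CPM, the size of these ratios depends largely on it. The sister transporters were scarce in the same cells, with Slc17a7 (VGLUT1) in 2 of 151 neuronal and 2 of 53 other cells, and Slc17a8 (VGLUT3) in 1 of each.

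Gls2 followed Slc17a6 in being mostly a transcript of neuronal cells, at a lower level. It lies on the forward strand of chr10:128194457-128210004 and shares exon sequence with Spryd4 on the opposite strand. Reads of that pair cannot be told apart, since the strand setting of the counting is not given in the sources used here. Gls2 was detected in 55 of 151 neuronal cells (36.4%, 28.7 to 44.6%) and in 1 of 53 other cells (1.89%). Its level ran from 0 through a median of 1.63 to 164.8 CPM in neuronal cells, and from 0 through 0 to 24.2 CPM in other cells. On plates 1, 2 and 3 its mean was 20.4, 21.5 and 10.9 CPM in neuronal cells, against 2.62, 0.677 and 0.301 CPM in other cells. The log2 ratios were 2.57, 3.74 and 3.19, those of plates 2 and 3 against means below the added 1 CPM. The share of neuronal cells with Gls2 also differed by plate, with 26 of 53, 17 of 44 and 12 of 54 cells.

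Glul, the enzyme that makes glutamine from glutamate and a marker of astrocytes in the brain, was found in most cells of both kinds. Exons of Teddm2 on the opposite strand and of Mir8114 on the same strand overlap it. It was detected in 78.1% of 151 neuronal cells and in 64.2% of 53 other cells. Levels ran from 0 through a median of 41.8 to 549 CPM in neuronal cells, and from 0 through 34.1 to 303 CPM in other cells, 2 distributions that overlap over most of their range. Its plate means were 60.4, 47.1 and 77.3 CPM in neuronal cells, against 62.2, 56.0 and 44.1 CPM in other cells, and the log2 ratios of −0.04, −0.24 and 0.79 were not of 1 sign. Of the 22 cells that carried the glial list, 13 had Glul detected, with a median of 22.8 CPM. That list held among others Sox10, S100b, Gfap and Ngfr, of which Ngfr was itself detected in most neuronal cells (69.5%).

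The glutamine carriers Slc38a1 (SNAT1) and Slc38a2 (SNAT2) lie in tandem on the reverse strand of chromosome 15, with 44478 bases between them, Slc38a1 at chr15:96571418-96642913. SNAT1 and SNAT2 both carry small neutral amino acids, and in the brain SNAT1 is found on neurons. Both transcripts were detected in most neuronal cells, Slc38a1 in 89.4% and Slc38a2 in 90.1%. They parted in the other cells, where Slc38a1 was found in 34 of 53 (64.2%) and Slc38a2 in 45 of 53 (84.9%).

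Slc38a1 ran from 0 through a median of 139.4 to 519 CPM in neuronal cells, and from 0 through 26.8 to 334 CPM in other cells. Plate by plate its mean was 179.04, 153.4 and 139.5 CPM in neuronal cells, against 54.1, 61.0 and 64.8 CPM in other cells, log2 ratios of 1.71, 1.32 and 1.09. Slc38a1 was therefore called higher on every plate, by a small margin on plate 3. The call ended when the median ratio of all tested genes on the plate was taken off, when 10 CPM were added in place of 1, and when mitochondrial reads were left out of the total, with mean log2 ratios of 0.98, 1.25 and 1.32.

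Slc38a2 stood the other way. Its levels ran from 0 through a median of 82.1 to 409 CPM in neuronal cells, and from 0 through 156 to 1059 CPM in other cells. Plate by plate its mean was 96.6, 109 and 88.9 CPM in neuronal cells, against 315, 162 and 190 CPM in other cells, and the log2 ratios were −1.69, −0.57 and −1.09. The ratio on plate 2 kept it from being called lower, and it was called without plate 2, at a mean of −1.39, and after taking off the plate median, at −1.51. On plate 3 the ratio was −0.64 without 1 cell. Slc3a2, the heavy chain of several amino acid exchangers, had log2 ratios of the same sign, −1.72, −0.45 and −1.19. Smooth muscle genes and other lists moved with this comparison, carried by all of the other cells, and their part in the levels was not tested. In the 96 neuronal cells without another list, the mean log2 ratio against other cells was 1.59 for Slc38a1 and −1.12 for Slc38a2.

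The balance of the 2 carriers was also read within each cell, where both share 1 depth. Per length, Slc38a1 was the higher of the pair in 71 of 149 neuronal cells (47.7%, 39.4 to 56.0%) and in 5 of 51 other cells (9.80%, 3.26 to 21.4%) with reads of either. The plates gave 26 of 53, 22 of 43 and 23 of 53 neuronal cells, against 0 of 13, 2 of 21 and 3 of 17 other cells. The median log2 ratio of Slc38a1 over Slc38a2 in RPKM was −0.09 in neuronal and −2.57 in other cells. Among neuronal cells that carried no list of another type, Slc38a1 was the higher in 53 of 95 (55.8%). The share was higher in neuronal cells on each plate. On plate 3 the counting intervals overlapped, at 29.8 to 57.7% in neuronal and 3.80 to 43.4% in other cells.

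**Figure D2:**
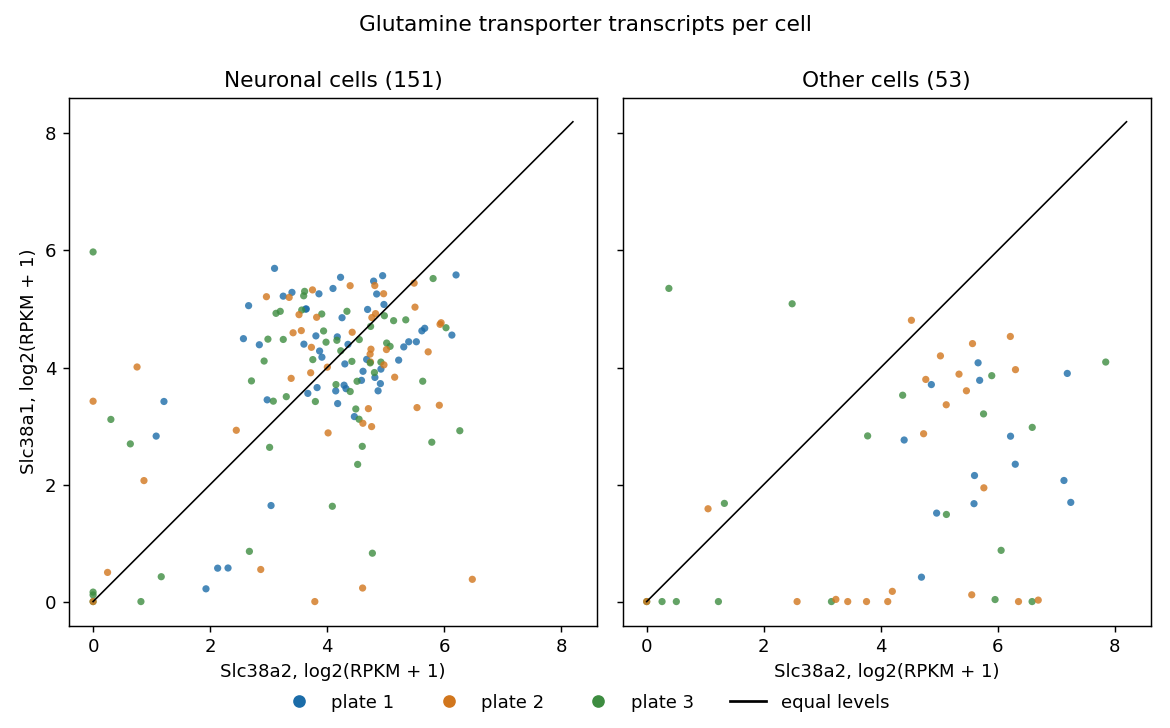
Slc38a1 (vertical axis) against Slc38a2 (horizontal axis) in each cell, both as log2(RPKM + 1), with neuronal cells in the left panel and other cells in the right; colours are plates and the diagonal marks equal levels. Neuronal cells scatter on both sides of the diagonal, with 71 of 149 above it, and 5 of 51 other cells lie above it.

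The 3 genes of glutamate uptake were near the floor. Slc1a3 (GLAST, chr15:8634124-8710764, reverse strand) and Slc1a2 (GLT-1, chr2:102658659-102790784, forward strand) are the main glutamate transporters of astrocytes, and Slc1a1 (EAAC1, chr19:28835049-28913960, forward strand) is the common one of neurons. An opposite-strand gene overlaps exons of Slc1a1, 4430402I18Rik, and Gm13872 lies opposite Slc1a2. Slc1a1 was detected in 8 of 151 neuronal cells (5.30%) and 2 of 53 other cells, with highest levels of 40.9 CPM in neuronal and 66.7 CPM in other cells. Slc1a2 was detected in 12 of 151 neuronal cells (7.95%) and 0 of 53 other cells, with highest levels of 157.7 CPM in neuronal and 8.97 CPM in other cells. Slc1a3 was detected in 6 of 151 neuronal cells (3.97%) and 0 of 53 other cells, reaching 68.6 CPM in neuronal and 9.20 CPM in other cells. All 3 had a median of 0 CPM in both kinds of cell.

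In all, 25 neuronal cells had at least 1 of the 3 and 2 other cells did, and 1 neuronal cell had more than 1, with Slc1a2 at 11.6 CPM and Slc1a3 at 25.3 CPM. Few cells with the glial list had the transporters known from astrocytes, but few cells of any kind had them. Of the 22 cells that carried the list, 10 of them neuronal, 21 had no read of Slc1a3 and 17 none of Slc1a2. Most neuronal cells and most other cells likewise had no read of either gene. These counts therefore show no particular lack in cells with the glial list. Of the 12 cells with Slc1a2 detected 1 carried the glial list, and of the 6 with Slc1a3 it was 0. Ratios of these genes rest on few cells: that of Slc1a1 on plate 1, −1.67, became 0.95 without 1 of the other cells, a value set by the added 1 CPM since the remaining other cells of that plate had no read.

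Against the whole table, 3 of the 8 genes were called higher in neuronal cells (Slc17a6, Gls2 and Slc38a1) and 0 lower, where 15.3% of the 18816 genes tested were called higher and 4.7% lower. The median log2 ratio of all tested genes, averaged over plates, was 0.43. Detection in at least 50% of neuronal cells was reached by Slc17a6, Glul, Slc38a1 and Slc38a2, and by 43.7% of genes. Glul, Slc38a1 and Slc38a2 reached it in the other cells as well, as did 27.6% of genes. Slc1a1, Slc1a2 and Slc1a3 were found in under 10% of neuronal cells, as were 27.9% of genes.

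**Figure D3:**
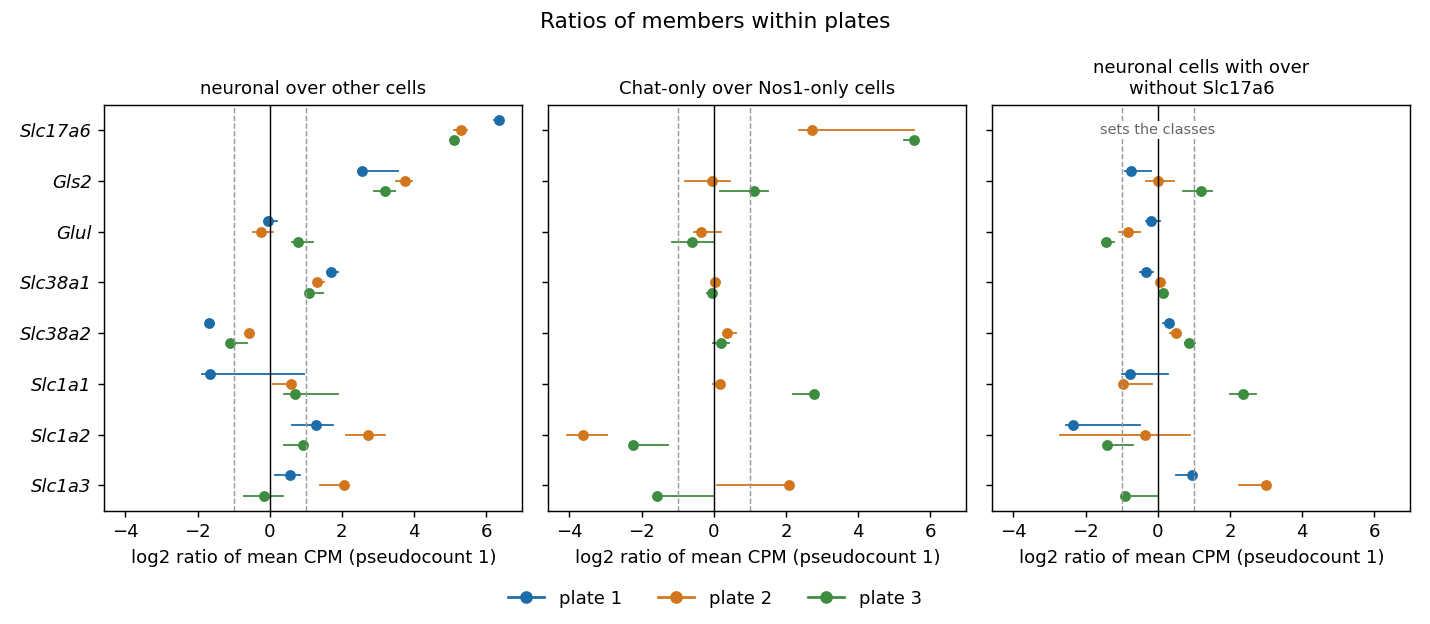
Log2 ratios of mean CPM (1 CPM added) for each gene, one panel per comparison; each point is a plate, the thin line is its range when any 1 cell is left out, and dashed lines mark a size of 1. Slc17a6 and Gls2 lie far to the higher side in neuronal cells on all plates, Slc38a1 above 1 and Slc38a2 below 0. Against a class with a mean below 1 CPM, the size of a ratio depends largely on the added 1 CPM. Against a class with no reads it is set by it.

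The rest of the pathway was read from 4 lists. Of all 18816 genes tested, 15.3% were called higher in neuronal cells and 4.7% lower, with a median log2 ratio of 0.43. Of 23 vesicular loading genes tested, 9 were called higher in neuronal cells and 0 lower, with a median log2 ratio of 1.20. Besides Slc17a6 they were Slc18a3, which loads acetylcholine, Slc17a5, Clcn3 and 5 genes of the proton pump and its accessory protein. The pump gene Atp6v0d1 had log2 ratios of 1.95, 1.81 and 1.20 on plates 1, 2 and 3, and Atp6v0c, its membrane ring, had 0.79, 1.09 and 0.67 and was not called. Of 4 mitochondrial carriers tested 3 were called higher, with a list median of 1.67, among them the aspartate-glutamate carrier Slc25a12 at 1.63, 1.41 and 1.38. Of 16 synthesis and breakdown genes, Gls2 and Aldh5a1, an enzyme of GABA breakdown, were called higher and Oat, ornithine aminotransferase, lower, with a list median of 0.43. Of 17 plasma membrane transporters, Slc1a6, Slc1a7 and Slc38a1 were called higher and Slc1a5 and Slc7a11 lower, with a list median of 0.31. In median, the synthesis list was thus level with all tested genes and the plasma membrane list slightly below them. The loading and carrier lists stood above them. Slc7a11, the light chain of the cystine-glutamate exchanger, was detected in 16 of 151 neuronal and 30 of 53 other cells, with log2 ratios of −3.59, −2.79 and −5.31. Slc1a6 (EAAT4) and Slc1a7 (EAAT5) were in 14 and 22 of 151 neuronal cells and in 0 of 53 other cells. Aldh5a1, Oat, Slc1a5, Slc1a6, Slc1a7, Slc7a11 and the loading genes other than Atp6v0d1 and Atp6v0c were named after their values were seen.

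Detection of Chat and Nos1 split the neuronal cells into 56 with Chat only, 30 with Nos1 only, 50 with both and 15 with neither. Slc17a6 was found in 40 of 56 cells with Chat only (71.4%), 3 of 30 with Nos1 only (10.0%), 43 of 50 with both and 3 of 15 with neither (20.0%). These shares pool the plates. Plate 1, where Slc17a6 was in 44 of 53 neuronal cells, held 23, 3, 22 and 5 cells of these classes. The part of plate in the shares was not tested. The other genes were spread more evenly. Gls2 was found in 20, 10, 23 and 2 cells of these classes, Glul in 46, 23, 40 and 9, and Slc38a1 in 55, 27, 46 and 7. Slc38a2 was found in 52, 27, 48 and 9. The 15 cells with neither had the lowest share of Gls2, Glul, Slc38a1 and Slc38a2, and their median depth was 1045687 reads.

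Chat-only and Nos1-only cells could be compared on plates 2 and 3, over all cells of each class, since plate 1 held 3 Nos1-only cells. Of the 8 genes 1 was called higher and 1 lower in Chat-only cells, where 5.53% and 2.98% of tested genes were. Slc17a6 averaged 50.6 and 49.9 CPM in Chat-only cells of plates 2 and 3, against 6.87 and 0.0818 CPM in Nos1-only cells. The log2 ratios were 2.71 and 5.56, and the size of the second depends largely on the added 1 CPM. On plate 2 the ratio was 5.54 without 1 Nos1-only cell, and on plate 1, outside this comparison, 2 of 3 Nos1-only cells had Slc17a6. With classes set by a 4-fold ratio of Chat to Nos1 in place of detection, plate 1 entered and Slc17a6 was no longer called, at a mean log2 ratio of 2.91. Chat-only cells were shallower, with median depths of 4211462 and 4986781 reads on plates 2 and 3, against 5233561 and 6885200 reads in Nos1-only cells. Lists of other types were carried by 7 of 18 and 6 of 16 Chat-only cells, against 7 of 15 and 1 of 13 Nos1-only cells. The part of depth and of these lists in the values was not tested.

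The glutamine genes were close between Chat-only and Nos1-only cells. On plates 2 and 3 the log2 ratios were 0.04 and −0.05 for Slc38a1, 0.38 and 0.21 for Slc38a2, and −0.36 and −0.60 for Glul. Gls2 had −0.04 and 1.11, and the second became 0.18 without 1 cell. The carrier balance was also similar, with Slc38a1 the higher of the pair in 27 of the 57 cells with Chat alone and in 17 of the 30 with Nos1 alone.

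Slc1a2 was the gene called lower in Chat-only cells, from few cells. It was detected in 1 of 18 and 0 of 16 Chat-only cells of plates 2 and 3, against 3 of 15 and 2 of 13 Nos1-only cells. Its means were 1.09 and 0 CPM in Chat-only cells, against 24.6 and 3.73 CPM in Nos1-only cells, a log2 ratio of −3.62 on plate 2. On plate 3 Chat-only cells had no read, so that the plotted ratio is set by the added 1 CPM. The 3 Nos1-only cells of plate 2 were among the shallowest, with 630910, 453052 and 684905 reads, and held Slc1a2 at 66.6, 139.06 and 157.7 CPM. Plate 1 ran the other way, with Slc1a2 in 4 of 23 Chat-only cells and 0 of 3 Nos1-only cells. The call ended in neuronal cells without another list, at a mean of −1.15, with 10 CPM added, at −1.05, and as a difference of mean log2 levels, at −1.07.

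Among the listed genes outside the 8, Gpt, an alanine aminotransferase, had log2 ratios of 1.74 and 2.07, Slc1a4, a carrier of neutral amino acids, 1.20 and 1.02, just past the threshold, and Slc18a3 4.57 and 3.69. These 3 were called higher in Chat-only cells and, but for Slc1a4, named after their values were seen. Slc18a3 loads acetylcholine, and Chat, which encodes the enzyme that makes it, sets the classes. The ratio of Slc18a3 is therefore no separate result on glutamate. With Slc17a6 included, 2 of 23 loading genes tested were called higher. It was 1 of 16 synthesis and breakdown genes, 1 of 17 plasma membrane transporters and 0 of 4 mitochondrial carriers. Over all tested genes 5.53% were called higher.

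The last comparison set neuronal cells with Slc17a6 against those without it, 44 against 9, 20 against 24 and 25 against 29 cells by plate. None of the other 7 genes was called, 0 higher and 0 lower, where 1.32% and 0.771% of tested genes were. Slc38a2 had log2 ratios of 0.30, 0.51 and 0.87 and Slc38a1 −0.33, 0.05 and 0.14. Glul leaned the other way, with means of 59.0, 33.0 and 40.0 CPM in cells with Slc17a6, against 67.4, 58.9 and 109 CPM in cells without it, log2 ratios of −0.19, −0.81 and −1.43. Gls2 changed sign between plates, at −0.74, −0.01 and 1.19. Slc1a2, at −2.35, −0.36 and −1.42, was called lower without plate 2, but rests on 12 cells with the transcript, and its ratio on plate 1 was −0.48 without 1 of them. In all, 30 of 89 cells with Slc17a6 and 25 of 62 without it carried a list of another type. On plate 1 the glial list was in 4 of 44 cells with Slc17a6 and 4 of 9 without it, and its part in these values was not tested. Aldh5a1 was the gene of the 4 lists called higher, at 3.19, 1.30 and 1.23, detected in 49 of 89 cells with Slc17a6 and 12 of 62 without it, and was named after its values were seen. It was 1 of 16 synthesis and breakdown genes tested. Of 4 mitochondrial carriers, 17 plasma membrane transporters and 22 loading genes tested, 0 were called, where 1.32% of all tested genes were called higher.

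Slc38a1 or Slc38a2 was found in 89 of 89 neuronal cells with Slc17a6 and in 55 of 62 without it, so a glutamine carrier was not limited to cells with the loader. Slc17a6, Gls2 and Slc38a1 were detected together in 36 of the 89 cells, 21, 9 and 6 by plate. Cells with both Slc17a6 and Gls2 numbered 37, where the product of their shares within plates gave 34.9. For Slc17a6 with Glul it was 70 against 72.0, for Slc17a6 with Slc38a1 86 against 80.5, and for Gls2 with Slc38a1 53 against 49.7.

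Across the 151 neuronal cells, log2 levels centred on their plate were described by Pearson's r. No test was made, since cells of a plate share a library pool and differ in depth. Slc38a1 and Slc38a2 had an r of 0.48. Slc17a6 had an r of 0.24 with Slc38a2, −0.14 with Glul and 0.00 with Gls2. The levels of Slc38a1, Glul and Slc38a2 had an r with log2 depth of 0.40, 0.32 and 0.25, and that of Slc17a6 had 0.01.

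The genes most like each member were sought among 10418 genes by the same r, for members detected in 10 to 90% of neuronal cells. For Slc17a6 they were Ano5 (0.68), Ntng1 (0.64), Islr2 (0.63), Tmeff2 (0.60) and Cd24a (0.60), each with an r of at least 0.38 on every plate. For Slc38a1 they were Lgmn (0.68), Mcmbp (0.67), Atp2b1 (0.66), Scamp5 (0.63) and Ubr4 (0.62), of which Atp2b1, a calcium pump of the plasma membrane, kept an r of at least 0.64 on every plate and Lgmn, a lysosomal protease, had 0.27 on plate 1. The likeness was weaker for Glul, led by Mir22 (0.49), Srxn1 (0.47) and Prkag1 (0.45), and weakest for Gls2, led by Ulk3 (0.36), Adck2 (0.35) and Tex9 (0.34). On plate 1 Mir22 had no r, Srxn1 had 0.17 and Ulk3 had 0.22. Adck2 had its lowest r on plate 3, at 0.24. Prkag1 and Tex9 had theirs on plate 2, at 0.32 and 0.34.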

How the data were processed

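The deposited table gave log2(RPKM + 1) for each gene and cell, with base and offset inferred from its values. The build is mm10, per the submitters' processing notes. Aligner, counter and strandedness are not given in the sources at hand. Whole reads were recovered for 100% of 2375655 values above 0, within 0.0001 reads. Gene lengths were those of GENCODE M21 for 31311 genes and the smallest length giving whole reads for 6324, Slc38a1, Slc38a2 and Slc1a1 among them; 11857 had no reads. The design had assumed read counts, and its thresholds in CPM were kept on the recovered reads. Recovery and ratios were tested on simulated data, and shares were not.

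The 8 genes and all lists were chosen with earlier results of these data known. Outside the 8, genes were named as Slc17a7 and Slc17a8, as the 3 members of each list detected in most neuronal cells, or as the 5 most alike in level; others are marked in the text. Some of these are left unnamed, and results on withheld genes are not reported here. Alternatives changed the pseudocount, thresholds, classes, totals and plates. Python 3.11.15, numpy 2.4.6, scipy 1.17.1 and pandas 2.3.3 were used.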

Additional observations from a re-analysis of the deposited data

How the results depend on the processing

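No result with a sign that was called reversed under any alternative run. The share of neuronal cells with Slc17a6 (58.9%) was 67.5% at 1 CPM, 43.0% at 50 CPM, 73.5% at 1 read and 45.9% without plate 1. Genes called between neuronal and other cells numbered 3767, against 1818 with a pseudocount of 10 and 2503 at a mean of 10 CPM; 0 of the 8 were called lower, against 1 (Slc38a2) less the plate median and without plate 2. For Chat-only against Nos1-only cells, 1 was called higher, against 2 with a pseudocount of 0.1 or classes at 50 CPM and 0 with classes by a ratio of 4; 1 was called lower, against 0 with a pseudocount of 10, with mean log2 differences, with classes by a ratio of 4 and in neuronal cells without another list. All genes called there numbered 1600, against 439 with a pseudocount of 10, 1042 with mean log2 differences and 662 with classes by a ratio of 4. With against without Slc17a6, 393 genes were called, against 719 and 82 with pseudocounts of 0.1 and 10, 975 with Slc17a6 at any read, 1353 without cells that carried another list, 1374 in Chat-only cells and 1095, 1223 and 1203 without plate 1, 2 or 3, where fewer plates had to share the sign; 1 of the 7 (Slc1a2) was called lower without plate 2. For the other changes the cause was not tested. Of the single shares 22 moved and 74 did not, and of the single ratios 40 moved and 240 did not. A share counted as moved when it left the exact interval of its main value. A ratio did when it shifted by at least the SD of its main values between plates. A ratio whose plates differed widely could thus shift far without counting as moved.

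No paired analysis was possible because the labels' numbers only count cells within a plate and no result comes from a test. Taking off the plate median, leaving out mitochondrial reads or cells under 1000000 reads and, for the ratios, leaving out plates were chosen after seeing the data. The alternative that used the neuronal list of earlier scripts was not run, as they were not at hand. Values of the 3 uptake genes rest on few cells, and plates cannot stand for animals.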
